A study of Mus musculus with 13 samples.

Results

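Neurofilament genes and markers of large-calibre sensory neurons, 10 genes in all, were followed across 13 bulk RNA sequencing libraries of mouse dorsal root ganglion (DRG) cells. They are the neurofilament subunit genes Nefh, Nefm, Nefl and Ina, the related filament gene Prph, the calcium-binding protein genes Pvalb, Calb1 and Calb2, and Spp1 and Cntnap2. The genes were chosen by name, by matching mouse symbols to the Ensembl identifiers of the count tables, and all 10 were found among the 41388 genes listed. Each library is a pool of DRG cells sorted by fluorescence from mice of 3 months of age on the C57BL/6 background, and the genotype label of every library is Tg(Ret-EGFP)SJ. The series text describes EGFP as knocked in at the Ret locus in heterozygous animals, so all groups carry the same reporter and no group without it was analysed here. Ret is the receptor tyrosine kinase that signals for ligands of the GDNF family, which support sensory neurons, and EGFP marks the cells that express it. The female L345 group (ganglia of lumbar levels L3, L4 and L5) held 3 libraries from pools of 3 to 7 mice. The female L6S1 group (levels L6 and S1) held 3 libraries from pools of 4 to 7 mice. The male L345 group held 3 libraries from pools of 2 to 5 mice, and the male L6S1 group held 4 libraries from pools of 3 to 9 mice. Libraries of a group are named by the letter in their label (A, B and C, or A, D, E and F for male L6S1). The labels do not state whether 1 mouse gave ganglia to both levels, and the p-values measure the spread between pools.

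Neurofilaments are the intermediate filaments of axons. The light chain Nefl forms the core with the medium and heavy chains Nefm and Nefh and with alpha-internexin (Ina) or peripherin (Prph), and the long tails of the medium and heavy chains project from the filament and are heavily phosphorylated. In the DRG, large neurons with myelinated A fibres, which carry touch and proprioception, are rich in neurofilament heavy chain, while peripherin is abundant in small neurons with unmyelinated C fibres. Parvalbumin, calbindin and calretinin (Pvalb, Calb1, Calb2) are EF-hand calcium buffers found in subsets of large neurons, osteopontin (Spp1) is a secreted phosphoprotein that labels large DRG neurons, and Caspr2 (Cntnap2) holds potassium channels beside the nodes of myelinated axons.

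The libraries held 13030096 to 27011995 counts. CPM below is the count scaled to a common library total (1e6) after correction by TMM factors. These factors ran from 1.01 to 1.05 except in libraries E (0.796) and D (0.925) of male L6S1. Libraries D and E stood apart: relative to the median of the other 11, the shortest of 4 equal bins of genes by exon length (median 1347 bases) was higher by a median of 0.61 in D and 0.86 in E on the log2(CPM + 0.5) scale. The longest bin (median 7655.5 bases) had medians of -0.48 and -0.73. In E the 12 Schwann and satellite glia markers also summed to 9503 CPM, against 3092 to 4557 in the other 12 libraries. Marker sums of other cells over all 13 libraries were 8.81 to 37.1 CPM for 12 macrophage and immune genes and 4.61 to 18.1 CPM for 10 skeletal muscle genes. Of those lists, 7 genes each never exceeded 1 CPM. The 9 fibroblast and bone genes summed to 79.9 to 587 CPM and the 9 endothelial and mural genes to 159 to 500.2 CPM, highest in male L6S1 E and female L6S1 A respectively. The 10 pan-neuronal genes summed to 10106 to 15103 CPM, and the part of other cells in the results below was not tested. Such bulk values cannot tell fewer cells of a type apart from less RNA per cell.

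Promoter sequences were found in the RefSeq table on GRCm38.p6 for 5 of the 10 genes (Prph, Ina, Pvalb, Spp1 and Cntnap2). Those of Prph and Cntnap2 are shown because these genes had the smallest p-values between levels in males, and that of Ina because its values went with those of Prph across libraries. Each run is the 250 bases before the annotated start, 5′ to 3′ on the strand of the gene, and capitals mark matches to 4 motifs searched on both strands. They were TATAAA (the TATA box), then GGGCGG (the GC box), then CCAAT (the CCAAT box), and lastly CAGCTG (an E-box). The sequence of Prph is chr15:99054924-99055173 (plus strand), that of Ina is chr19:47014431-47014680 (plus strand) and that of Cntnap2 is chr6:45059811-45060060 (plus strand).
Prph: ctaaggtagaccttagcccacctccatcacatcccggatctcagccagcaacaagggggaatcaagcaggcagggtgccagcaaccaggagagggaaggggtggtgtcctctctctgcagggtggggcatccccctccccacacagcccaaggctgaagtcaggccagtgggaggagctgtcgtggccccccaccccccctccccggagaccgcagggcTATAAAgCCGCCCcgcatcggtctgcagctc
Ina: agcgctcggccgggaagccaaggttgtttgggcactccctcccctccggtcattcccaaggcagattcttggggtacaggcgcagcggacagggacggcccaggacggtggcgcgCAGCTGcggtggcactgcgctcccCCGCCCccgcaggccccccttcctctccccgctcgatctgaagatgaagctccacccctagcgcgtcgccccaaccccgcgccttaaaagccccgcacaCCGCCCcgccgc
Cntnap2: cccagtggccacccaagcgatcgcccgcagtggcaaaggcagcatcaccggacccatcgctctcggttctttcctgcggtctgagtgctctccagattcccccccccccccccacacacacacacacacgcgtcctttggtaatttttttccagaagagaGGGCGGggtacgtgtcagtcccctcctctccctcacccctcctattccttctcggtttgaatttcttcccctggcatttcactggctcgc
The Prph window held TATAAA with its first base 31 bases before the start and GGGCGG on the reverse strand (CCGCCC as printed) at 24. The Ina window held no TATAAA, but GGGCGG on the reverse strand at 111 and 12 bases and CAGCTG at 135 bases before the start. The Cntnap2 window held GGGCGG at 90. Among 32851 windows of the same length, 12.4% held TATAAA, 32.7% held GGGCGG, 33.8% held CCAAT and 13.001% held CAGCTG. GC content was 65.2% for Prph, 70.8% for Ina and 59.6% for Cntnap2, against a median of 52.4% over all windows. The matches are a description of the letters and say nothing of binding.

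Filament transcripts dominated the 10 genes. Per kilobase of exon, Nefl was the most abundant at 917 ± 134 CPM per kb (SD, n = 13), rank 49 of 15406 genes tested. Prph followed at 735 ± 278 CPM per kb (rank 64) and Nefm at 97.9 ± 25.2 CPM per kb (rank 698). Nefh, the chain by which large neurons are usually recognised, was at 19.4 ± 5.07 CPM per kb (rank 2814), and Ina at 17.7 ± 2.50 CPM per kb (rank 3019). The markers outside the filament genes were lower: Cntnap2 at 7.61 ± 1.92, Spp1 at 6.15 ± 4.09, Calb1 at 5.02 ± 2.82, Pvalb at 1.21 ± 0.766 and Calb2 at 0.259 ± 0.354 CPM per kb, so that Pvalb ranked 10592 and Calb2 13991. In this order, Prph exceeded Nefm, Nefm exceeded Nefh, and Ina exceeded Cntnap2 in 13 of 13 libraries. Nefl exceeded Prph, Calb1 exceeded Pvalb, and Pvalb exceeded Calb2 in 11 of 13 libraries each. Nefh and Ina were not separated, with Nefh higher in 7 of 13 libraries, nor were Spp1 and Calb1 (Spp1 higher in 7 of 13), and Cntnap2 exceeded Spp1 in 10 of 13. All 10 genes passed the filter on low counts.

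The gene models bear on these levels. Nefm (ENSMUSG00000022054, chromosome 14, 68082590 to 68124846, minus strand) and Nefl (ENSMUSG00000022055, chromosome 14, 68083863 to 68089095, plus strand) lie across each other on GRCm38 and share 1108 exon bases, which are 19.2% of the Nefm exons and 32.8% of those of Nefl. Ina (ENSMUSG00000034336, chromosome 19, 47014698 to 47025327, plus strand) shares 456 exon bases with Nt5c2 on the minus strand. Whether counting used strand is not given in the sources used here, so the counts of Nefm, Nefl and Ina are uncertain to that extent. Nefh (ENSMUSG00000020396, chromosome 11, 4938754 to 4948064), Prph (ENSMUSG00000023484, chromosome 15, 99055174 to 99058978), Pvalb (ENSMUSG00000005716, chromosome 15, 78191114 to 78206400), Calb1 (ENSMUSG00000028222, chromosome 4, 15881264 to 15908064), Calb2 (ENSMUSG00000003657, chromosome 8, 110142539 to 110168206), Spp1 (ENSMUSG00000029304, chromosome 5, 104435118 to 104441050) and Cntnap2 (ENSMUSG00000039419, chromosome 6, 45060061 to 47301369) share no exon base with another gene. Exon lengths range from 1041 bases in Pvalb to 7183 in Cntnap2.

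Other markers of the same neurons were read to check the name of the gene set against these cells. Of 28 further genes for A-fibre mechanoreceptors and proprioceptors, 15 averaged under 1 CPM per kb and 5 over 10, with a median of 0.783. Of 23 genes for small, C-fibre neurons, 0 averaged under 1 CPM per kb and 20 over 10, with a median of 73.6. Transcription factors of these neurons ranged from near the floor to well above it. Runx3, which specifies proprioceptors, had at most 0.421 CPM in any library, and Shox2, a factor of mechanoreceptors, at most 1.41 CPM. Maf, a factor of mechanoreceptors, averaged 8.13 CPM, and Whrn, a proprioceptor marker, 1.61 CPM. Ntrk2 and Ntrk3, the receptors for BDNF and NT-3 in A-fibre neurons, averaged 44.0 and 13.7 CPM, and Etv1, a factor of proprioceptors and some mechanoreceptors, 52.3 CPM. The small-fibre genes Calca (the neuropeptide CGRP), Th (the dopamine enzyme of C-fibre touch neurons) and Mrgprd (a receptor of non-peptidergic C fibres) averaged 7583, 687 and 438 CPM. The libraries held abundant small-fibre transcripts beside neurofilament transcripts, and the proprioceptor markers Pvalb, Runx3 and Whrn were at low CPM, whereas Etv1 was not.

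The 3 classical neurofilament chains had overlapping values at both spinal levels. Nefl was at 2539.9, 2907 and 3149.9 CPM in female L345 A, B and C and at 2943, 3343 and 3729 in female L6S1. In male L345 Nefl was at 3213, 3062 and 3133, and in male L6S1 A, D, E and F at 3187, 2145, 3000.4 and 3918. The male L6S1 libraries included both the lowest (D) and the highest (F) of all 13, and the levels overlapped in both sexes. Nefm was at 315, 743 and 692 CPM in female L345 and 393, 759 and 667 in female L6S1, and at 434, 646 and 663 in male L345 and 444, 463, 502 and 636 in male L6S1. Nefh was at 47.8, 78.2 and 83.8 CPM in female L345 and 56.7, 99.4 and 102 in female L6S1. In males Nefh was at 80.4, 68.3 and 89.2 in L345 and 53.0, 76.3, 58.7 and 113 in L6S1. The ranges of L345 and L6S1 overlapped for both genes, and the lowest library of each female group was A. Ina, the chain first made in developing neurons, was at 52.0, 64.9 and 57.6 CPM in female L345, 40.8, 59.4 and 56.7 in female L6S1, 44.3, 59.3 and 64.6 in male L345 and 54.5, 62.1, 57.3 and 70.3 in male L6S1. All groups overlapped, and the coefficient of variation over 13 libraries was 14.2% for Ina and 14.6% for Nefl, the lowest of the 10 genes, against 25.8% for Nefm and 26.1% for Nefh.

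Prph was the filament gene whose values differed most between groups. It was at 1011, 1136 and 1335 CPM in female L345 and 708, 1367 and 1309 in female L6S1, and at 969, 1132 and 1115 in male L345. In male L6S1 it was at 1069, 2174, 2361 and 2139.8 CPM in A, D, E and F. Male L6S1 D, E and F were above all other libraries, while A lay within the range of male L345. The 23 small-fibre genes do not include Prph. They summed to 26822 CPM in D and 33249 in E, against 13502 to 18330 in the other 11 libraries (16370.2 in F). Calca and Tac1 made up much of these sums, reaching 17037 and 11125 CPM in their highest library. In males 14 of the 23 had a negative log2 fold change of L6S1 over L345 and 9 a positive one (median -0.35). Over all 15406 genes tested, 7379 were negative and 8027 positive (median 0.04). The part of the small-fibre genes in the Prph values was not tested.

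**Figure D1:**
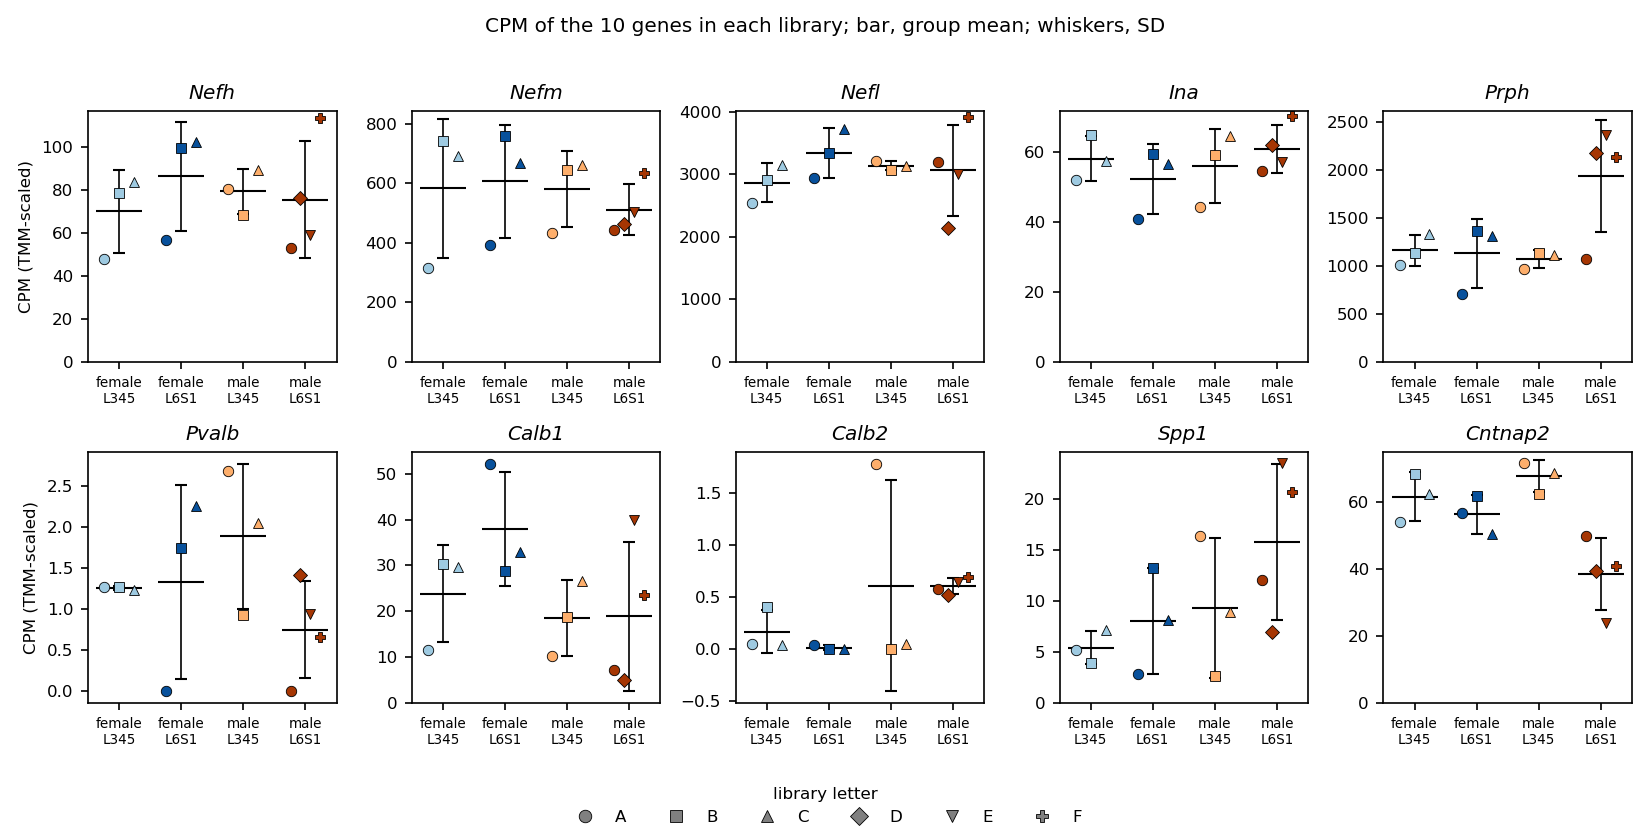
CPM (TMM-scaled, linear axes) of each of the 10 genes in the 13 libraries, with the 4 groups on the horizontal axis, a symbol for each library letter, a bar at the group mean and whiskers of 1 SD, which pass 0 where the SD exceeds the mean. Male L6S1 D, E and F were at 2174, 2361 and 2139.8 CPM of Prph, and the 4 male L6S1 libraries lay below the 3 male L345 libraries for Cntnap2.

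The calcium-binding genes varied far more between libraries than the filament genes. Pvalb, the buffer of proprioceptors, was at 1.27, 1.27 and 1.23 CPM in female L345 and 2.68, 0.931 and 2.04 in male L345. In female L6S1 A, B and C it was at 0, 1.74 and 2.25 CPM, and in male L6S1 A, D, E and F at 0, 1.41, 0.936 and 0.656. Pvalb thus had 0 counts in library A of L6S1 in both sexes, where 0 counts allow up to 0.135 CPM before TMM scaling, and the groups overlapped in both sexes. Calb1, a buffer of mechanoreceptors, was at 11.6, 30.3 and 29.6 CPM in female L345, 52.2, 28.9 and 32.9 in female L6S1, 10.2, 18.7 and 26.7 in male L345 and 7.17, 4.95, 39.8 and 23.4 in male L6S1. Its largest value was in female L6S1 A and its smallest in male L6S1 D, and its coefficient of variation was 56.2%. Calb2 was close to absent: 3 of 13 libraries had 0 counts and 7 had at most 3 counts. The total was 10 counts in female L345, 1 in female L6S1, 25 in male L345 (24 of them in A) and 54 in male L6S1, where A, D, E and F had 13, 11, 11 and 19 counts. In those 4 libraries Calb2 was at 0.579, 0.518, 0.643 and 0.692 CPM, above 8 of the other 9 libraries and below male L345 A at 1.79.

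Spp1 was at 5.20, 3.90 and 7.19 CPM in female L345 and 2.78, 13.2 and 8.15 in female L6S1. In males Spp1 was at 16.4, 2.61 and 8.91 CPM in L345 and 12.1, 6.98, 23.6 and 20.7 in L6S1. The highest values were those of male L6S1 E and F, and the groups overlapped in both sexes. Cntnap2 was at 53.8, 68.4 and 62.5 CPM in female L345, 56.7, 61.8 and 50.3 in female L6S1 and 71.7, 62.4 and 68.7 in male L345. In male L6S1 A, D, E and F Cntnap2 was at 49.9, 39.3, 23.7 and 41.0 CPM. All 4 male L6S1 libraries were below all 3 male L345 libraries, while the female groups overlapped.

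Levels L6S1 and L345 were compared in 1 model over all 13 libraries, with the quasi-likelihood F-test of edgeR and Benjamini-Hochberg adjustment over 15406 genes. No filament or large-fibre gene was called between levels: 0 of 10 passed at an adjusted p under 0.05 for the mean of both sexes (background 0.448% of all genes), 0 of 10 among females alone (0.0195%) and 0 of 10 among males alone (0.221%). At an unadjusted p under 0.05, 1 of the 10 passed for the mean of both sexes (Cntnap2), 0 among females and 2 among males (Prph and Cntnap2). Of all 15406 genes, 1293, 347 and 3904 passed in the same order. limma voom called 0 of 10 in each of these comparisons (background 0.363%, 0.0714% and 0.104%). DESeq2 called 0, 0 and 1 (Cntnap2 in males), against 1.01%, 0.254% and 7.53% of the genes to which it gave an adjusted p. The median log2 fold change of the 10 genes was 0.04 averaged over the sexes, against 0.02 for all genes tested, with 5 positive and 5 negative. Between the levels, groups did not overlap for 0 of 10 genes over both sexes (0.766% of all genes), for 0 of 10 in females (8.75%) and for 1 of 10, Cntnap2, in males (18.7%). Leaving out D and E, 2 of 10 genes (Pvalb and Cntnap2, both lower in L6S1) did not overlap in males (30.6%).

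The intervals show which changes the data leave room for. Between levels in females, the log2 fold change of Nefl was 0.22 (95% interval -0.32 to 0.76), and in males -0.03 (-0.54 to 0.47). For Ina the intervals were -0.69 to 0.38 in females and -0.38 to 0.62 in males. Those of Nefh were -0.41 to 1.01 and -0.74 to 0.59, and those of Nefm -0.67 to 0.78 and -0.86 to 0.49, so a change of more than about 1 log2 unit lay outside all of them except for a narrow margin in Nefh. For the low-count genes the intervals were wide, at -3.24 to 0.60 for Pvalb, -1.20 to 1.24 for Calb1 and -0.44 to 1.99 for Spp1 in males, and fitted values of Calb2 depend on the prior count.

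Prph and Cntnap2 lay furthest from 0 in males relative to their errors. For Prph the log2 fold change of L6S1 over L345 was 0.85 (SE 0.30, edgeR adjusted p = 0.142), from 1072 ± 90.0 to 1936 ± 586 CPM (SD, n = 3 and 4). In females it was -0.04 (SE 0.32, edgeR adjusted p = 1.00), and the difference between the sexes was 0.89 (SE 0.44, edgeR adjusted p = 0.409). For Cntnap2 the male log2 fold change was -0.81 (SE 0.25, edgeR adjusted p = 0.137), from 67.6 ± 4.74 to 38.5 ± 10.9 CPM. In females it was -0.13 (SE 0.27, edgeR adjusted p = 1.00), and the difference between the sexes was -0.68 (SE 0.37, edgeR adjusted p = 0.415). Without male L6S1 A, Prph (log2 fold change 1.05, edgeR adjusted p = 0.0185) and Cntnap2 (-0.96, adjusted p = 0.0213) passed, in a fit that called 3135 genes in males in place of 34. Without D and E, Prph was 0.57 (edgeR adjusted p = 0.623) and Cntnap2 -0.58 (adjusted p = 0.599). With the letter as a replicate block, the male comparison rests on the 2 A libraries alone, and the values were 0.14 for Prph (edgeR adjusted p = 0.876) and -0.52 for Cntnap2 (adjusted p = 0.404). Over the 21 settings run, the adjusted p in males ranged from 0.0185 to 0.876 for Prph and from 0.0213 to 0.599 for Cntnap2.

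**Figure D2:**
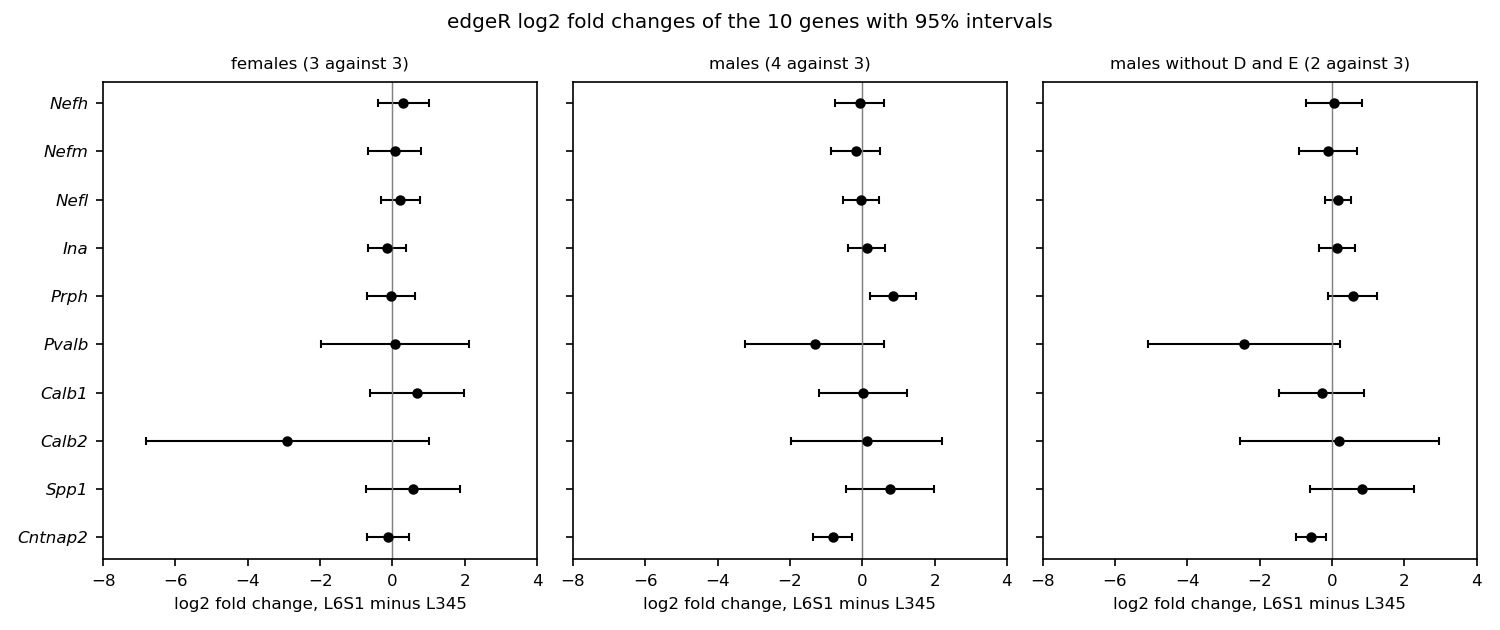
Log2 fold changes of L6S1 over L345 for the 10 genes from edgeR, with 95% intervals as whiskers, in females, in males and in males without libraries D and E. In males the interval of Prph ran from 0.21 to 1.50 and that of Cntnap2 from -1.35 to -0.28, and without D and E that of Prph reached below 0.

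Prph and Cntnap2 lie apart in exon length, along which D and E differed from the other libraries. Cntnap2 has the greatest exon length of the genes followed here. Prph is shorter than most of these genes but longer than Pvalb, Calb2 and Spp1. Prph has 1865 exon bases, and its difference from the median of the other libraries on the log2(CPM + 0.5) scale was 0.94 in D and 1.06 in E. It was also 0.93 in F, where the medians of the length bins ran from -0.23 to 0.13, and -0.08 in A. Cntnap2 has 7183 exon bases, and its difference was -0.65 in D, -1.36 in E, -0.60 in F and -0.31 in A. Spp1, at 1648 bases, differed by 1.48 in E and 1.38 in F but by -0.21 in D, so its values did not follow the length trend in D. Calb1, at 4846 bases, went from -2.32 in D to 0.57 in E. Without D and E, male L6S1 holds libraries A and F alone. Prph was at 1069 CPM in A and 2139.8 in F, against a mean of 1072 in male L345. Cntnap2 was at 49.9 CPM in A and 41.0 in F, against a mean of 67.6 in male L345. The part of exon length in the Prph and Cntnap2 values was not tested.

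**Figure D3:**
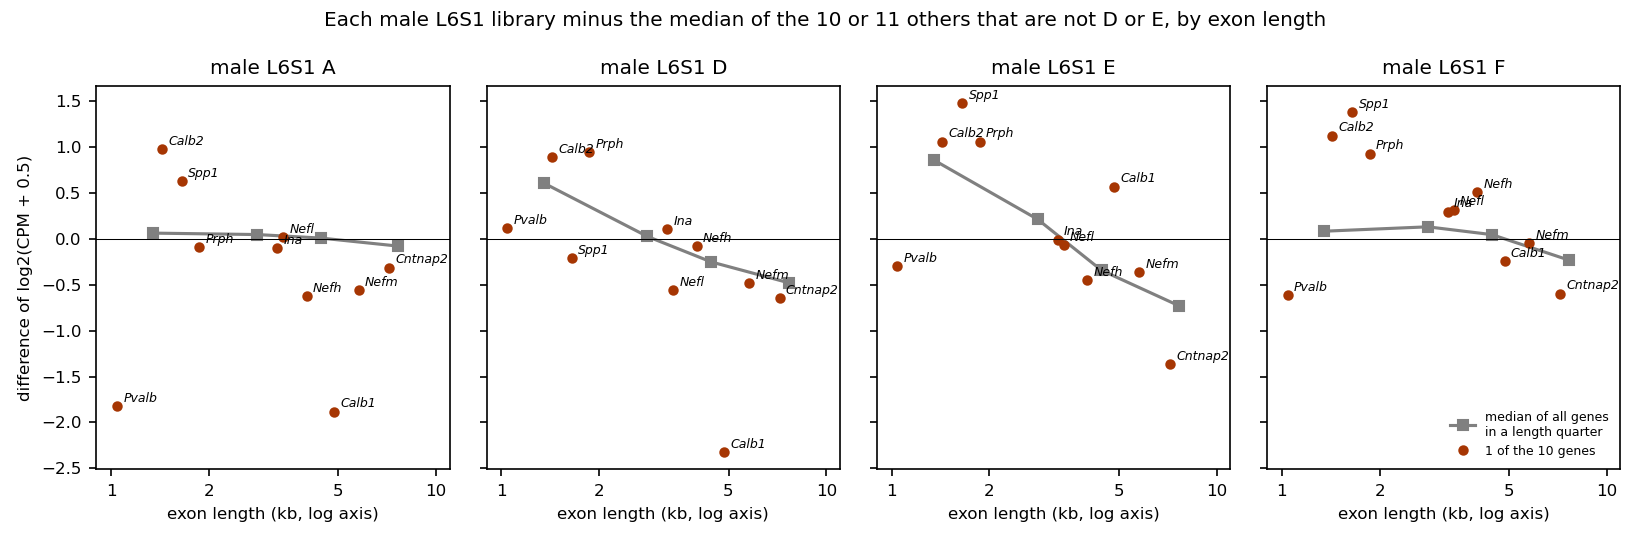
Difference of each male L6S1 library from the median of the other libraries that are not D or E (log2(CPM + 0.5), vertical axis) against exon length (kb, log axis), with grey squares for the median of all tested genes in each of the 4 length bins and coloured points for the 10 genes. The squares fall from 0.61 to -0.48 in D and from 0.86 to -0.73 in E and stay near 0 in A and F.

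The makeup of the filament pool was read as the share of each transcript in the per-length sum of the 5 filament genes. Over 13 libraries Nefl held 52.2 ± 8.45% (SD), Prph 40.2 ± 9.08%, Nefm 5.52 ± 1.34%, Nefh 1.09 ± 0.212% and Ina 1.00 ± 0.136%. The share of Prph was 38.7 ± 1.34% in female L345, 34.2 ± 5.38% in female L6S1 and 35.0 ± 1.90% in male L345 (SD, n = 3 each), and 49.6 ± 11.2% in male L6S1 (n = 4). By library the male L6S1 share of Prph was 35.3% in A, 60.8% in D, 55.7% in E and 46.5% in F, so that A lay inside the range of male L345 and the other 3 above all remaining libraries. The ratio of Nefl to Prph per length was 1.37 ± 0.0575 in female L345, 1.74 ± 0.493 in female L6S1, 1.62 ± 0.181 in male L345 and 0.975 ± 0.486 in male L6S1. By contrast the ratio of the heavy to the light chain, Nefh to Nefl, was 0.0204 ± 0.00387, 0.0216 ± 0.00466, 0.0214 ± 0.00262 and 0.0213 ± 0.00736 in the same order, closer between groups than the SD of any group.

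**Figure D4:**
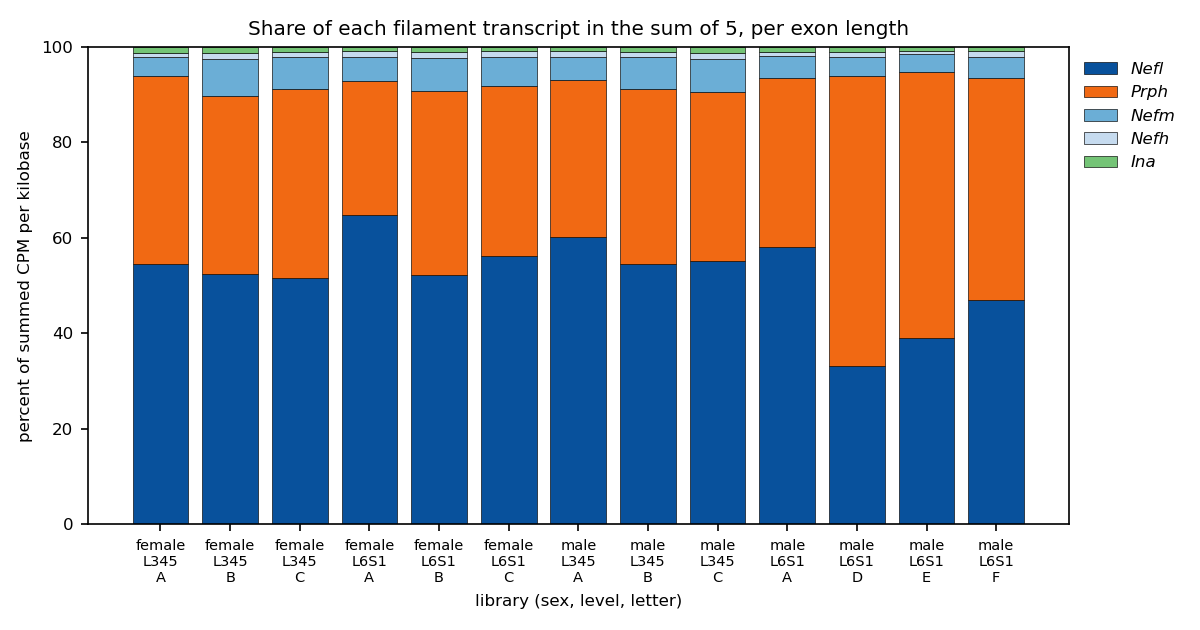
Stacked bars give the percent of the summed CPM per kilobase of Nefl, Prph, Nefm, Nefh and Ina held by each gene in the 13 libraries. Prph held 60.8%, 55.7% and 46.5% in male L6S1 D, E and F and 28.2 to 39.6% in the other 10.

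Library A tended to hold the lowest filament values of its group. Nefm, Ina and Prph were lowest in A in 4 of 4 groups, Nefh in 3 of 4 and Nefl in 2 of 4. Over all tested genes, 6.36% were lowest in A in every group, and the pattern was singled out after the values were seen. For Nefm the A value was 0.438, 0.551, 0.663 and 0.832 times the mean of the other libraries in female L345, female L6S1, male L345 and male L6S1, and for Prph 0.818, 0.529, 0.862 and 0.481 times. Of the other-cell sums, that of the endothelial and mural genes was highest in A in each group. Most of that sum was Rgs5, at 120 to 467 CPM over the 13 libraries, and no other gene of the list exceeded 18.8 CPM. Kdr and Tek were also highest in female L6S1 A. The highest library of Pecam1, Cdh5, Cldn5, Flt1, Pdgfrb and Acta2 was not an A library. Without the 4 A libraries, no gene of the 10 was called between levels.

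Across libraries some pairs of filament genes varied together and others did not, as a description over points that share depth, batch and scaling. Over 13 libraries Pearson's r of log2 CPM was 0.77 for Nefh and Nefm, 0.66 for Nefm and Ina, 0.66 for Ina and Prph and -0.75 for Prph and Cntnap2. Over the 11 libraries without D and E the same pairs gave 0.79, 0.72, 0.81 and -0.49, and Nefh and Nefl 0.81 in place of 0.56. Over 13 libraries r was -0.02 for Nefl and Prph, 0.13 for Nefl and Ina and 0.27 for Nefm and Prph. It was 0.35 for Nefh and Prph, 0.51 for Nefm and Nefl and 0.53 for Nefh and Ina. In the same order, these pairs gave 0.70, 0.39, 0.59, 0.73, 0.54 and 0.56 over the 11 libraries. Among 8632 genes of higher level, those with the values most like Nefh were Slco3a1, Map2k7 and Fem1a over 13 libraries (r = 0.86, 0.84 and 0.82) and Htr3b, Endod1 and Cit over 11 (r = 0.93, 0.88 and 0.87). For Prph they were Fxr2, Capns1 and Thap7 over 13 libraries (r = 0.98, 0.98 and 0.97) and Lrp10, Map2k2 and Csnk1g2 over 11. For Spp1 they were Smyd3, Chkb and Plek2 (r = 0.84, 0.82 and 0.79), then Coa7, Smyd3 and Tmem53 over 11. For Calb2, which is near the floor in most libraries, they were Cpne9, Pigz and Ankrd16 (r = 0.73, 0.67 and 0.66), then Ankrd40, Cox15 and Wdr70. Leaving out D and E thus replaced all 3 nearest genes of Nefh, Prph and Calb2 and 2 of the 3 of Spp1.

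No difference between males and females was called in these genes. None of the 10 was called by edgeR between the sexes averaged over the levels (background 0.0779% of all genes). At an unadjusted p under 0.05, 1 passed (Calb2), against 940 of all 15406 genes. Of the 10, limma voom (0.0779%) and DESeq2 (0.0946%) called 0. No gene of the 10, and none of the 15406, was called for a level effect that differs between the sexes (background 0%), with 0 of the 10 at an unadjusted p under 0.05. No gene had male and female libraries that did not overlap at both levels (0.169% of all genes). The log2 difference of males from females was 0.00 for Nefl (95% interval -0.37 to 0.37), -0.13 for Nefm (-0.62 to 0.37) and -0.01 for Nefh (-0.49 to 0.48). For Spp1 it was 0.87 (SE 0.42, edgeR adjusted p = 0.665) and for Calb1 -0.69 (SE 0.42, adjusted p = 0.665). Sex cannot be told apart from processing, because the submitters' notes list STAR 2.0.4b and Salmon for the female libraries and not for the male ones. Nor can it be told apart from deposit, because female and male libraries carry separate runs of sample numbers. Male L6S1 E and F carry a further run, so level in males is partly mixed with this numbering. The part of the numbering in the results was not tested.

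Genes that work with the 10 were read from lists of their partners, for which the counts give the genes that edgeR called, of those tested, between levels averaged over the sexes and then in males. Of 7 other intermediate filament and lamin genes, 0 and 0 were called. The smallest p averaged over the sexes was that of Synm (synemin, a partner of vimentin and neurofilaments), with a log2 fold change of -0.46 (SE 0.19, edgeR adjusted p = 0.557). Of 30 genes for axonal microtubules, crosslinkers and motors, edgeR called 0 and 0 (DESeq2 0 and 4), and Tuba4a (an alpha-tubulin) and Ank3 (ankyrin-G, the scaffold of nodes) were nearest in males at 1.15 and -1.08 (edgeR adjusted p = 0.137 each). Of 16 kinases, phosphatases and turnover factors of neurofilaments, 0 and 0 were called. Cdk5r1, which encodes the p35 activator of Cdk5, had -0.40 averaged over the sexes (SE 0.17, edgeR adjusted p = 0.574), and Trim2, a ubiquitin ligase for the light chain, -0.90 in males (adjusted p = 0.144). The median log2 fold change of the lists was 0.19, -0.04 and -0.16 averaged over the sexes, against 0.02 for all genes.

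With all 13 libraries and no block, Scgn was the only gene of the partner lists that edgeR called. It encodes secretagogin, an EF-hand calcium sensor related to calbindin and calretinin. Scgn was at 4.24, 2.23 and 2.59 CPM in female L345 A, B and C and 13.5, 12.7 and 12.2 in female L6S1, and at 2.16, 2.70 and 1.65 in male L345 and 6.41, 10.1, 22.4 and 9.04 in male L6S1 A, D, E and F. All L6S1 libraries were above all L345 libraries in both sexes, with E the highest of the 13. Scgn rose in L6S1 by a log2 fold change of 2.27 averaged over the sexes (SE 0.30, edgeR adjusted p = 0.00129) and 2.46 in males (SE 0.42, edgeR adjusted p = 0.0227). In females it was 2.08 (SE 0.42, edgeR adjusted p = 0.126). Without D and E the adjusted p was 0.00124 for both sexes together, 0.0222 among females and 0.0674 among males, and with the letter of the library as a replicate block 0.000392, 0.00395 and 0.183. Of 27 tested EF-hand genes edgeR called 1 averaged over the sexes (background 0.448%) and 1 in males (0.221%), and DESeq2 2 and 3. Their median log2 fold change was 0.31 averaged over the sexes, and -0.04 without D and E.

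Partners of Cntnap2 and Spp1 and the remaining large-fibre genes held no call by edgeR with all libraries and no block. Of 28 genes of nodes, paranodes and juxtaparanodes edgeR called 0 in either comparison (DESeq2 0 and 2). In males 25 of the 28 were negative, against 7379 of all 15406 genes. The median log2 fold change was -0.31 against 0.04 for all genes. Without D and E, 18 of the 28 were negative in males (7824 of 15540 over all genes) and the median was -0.21. In females 18 of the 28 were positive (7712 of 15406 over all genes), with a median of 0.16. Averaged over the sexes without D and E, 16 were positive (7622 of 15540 over all genes), with a median of 0.04. Kcna1, a potassium channel subunit that Caspr2 clusters, was at 47.7 ± 26.9 CPM in male L345 and 22.4 ± 4.30 in male L6S1 (log2 fold change -1.08, edgeR adjusted p = 0.137). Cntn1, contactin of the paranode, was at 144 ± 39.9 and 55.7 ± 31.0 CPM (log2 fold change -1.37, edgeR adjusted p = 0.137). Of 10 tested osteopontin receptor and related genes edgeR called 0 (DESeq2 0 and 1), with Itgb6 at -1.76 and Itgav at -0.64 averaged over the sexes (edgeR adjusted p = 0.376 and 0.378). Of 25 tested A-fibre marker genes edgeR called 0 (DESeq2 1 and 1). Fxyd7, a regulator of the sodium pump with 684 exon bases, was nearest, at 67.8 ± 5.80 CPM in male L345 and 243 ± 124 in male L6S1 (log2 fold change 1.84, edgeR adjusted p = 0.0687), and at 1.05 without D and E (adjusted p = 0.398). Of the 23 small-fibre genes edgeR called 0 (DESeq2 0 and 3), and the nearest averaged over the sexes, Tac1 (substance P), had 0.76 (edgeR adjusted p = 0.518). Without D and E edgeR called 1 small-fibre gene averaged over the sexes (Trpv1, the capsaicin receptor, named after its value was seen; background 0.476%). With the replicate block edgeR called 1 A-fibre gene averaged over the sexes (background 0.584%; Faim2, an inhibitor of Fas-mediated cell death, named after its value was seen) and 0 in males. The fits with the block called 90 genes of all tested for both sexes together, 56 among females and 0 among males, in place of 69, 3 and 34.

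DESeq2 called more genes of these lists, at a background of 1.01% averaged over the sexes and 7.53% in males, and the genes below were named for these calls. Averaged over the sexes it called Scgn, Hpca (hippocalcin, an EF-hand calcium sensor; log2 fold change 0.90, DESeq2 adjusted p = 0.0301) and Fxyd7 (1.12, DESeq2 adjusted p = 0.00830). In males it called Hpca (1.54, DESeq2 adjusted p = 0.00114), S100a1, another EF-hand protein gene, and Scgn. Of the nodal partners in males it called Cntn1 (-1.36, DESeq2 adjusted p = 0.0207) and Kcna1 (-1.08, DESeq2 adjusted p = 0.0385), both lower in L6S1. Of the axonal list in males it called Tuba4a, Stmn3 and Tubb2b higher and Ank3 lower, with DESeq2 adjusted p of 0.0166 to 0.0492. The remaining male calls were Itgav (an integrin subunit that binds osteopontin) lower, Fxyd7 higher, and among small-fibre genes Tac1 and Calca higher and Plxnc1 lower. These DESeq2 calls include D and E, and no DESeq2 fit left them out. In edgeR without D and E, male log2 fold changes were -0.91 for Cntn1, -0.97 for Kcna1, 0.62 for Tuba4a and -0.80 for Ank3. They were -0.96 for Itgav, 0.56 for Tac1 and -0.66 for Plxnc1. Each was smaller in size than in edgeR with all libraries, with edgeR adjusted p of 0.446 to 0.623. In females it called Scgn alone of these lists, and limma voom called Scgn averaged over the sexes and 0 genes of these lists in females or in males. Of the other-cell markers, edgeR called C1qb, of the macrophage and immune list, higher in L6S1, at 0.690 to 10.7 CPM over the 13 libraries. Its log2 fold change was 2.18 averaged over the sexes (edgeR adjusted p = 0.00667) and 2.66 in males (edgeR adjusted p = 0.0315). It was the only 1 called of 5 tested genes of that list (background 0.448% averaged over the sexes and 0.221% in males). Of the 12 genes of the list, 7 never exceeded 1 CPM. C1qa and C1qc had 5 and 14 counts over the 13 libraries. Lyz2 and Cd74 reached 8.13 and 14.9 CPM, both in male L6S1 E. The part of C1qb in the results was not tested.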

How the data were processed

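Bulk RNA was sequenced from 13 pools of sorted DRG cells: 10 ng of total RNA, a SMARTer Ultra Low Input kit and Illumina HiSeq sequencing were used, per the labels' protocols. The authors deposited raw, whole-number read counts for each gene. The CPM and RPKM that the authors deposited are those counts scaled to a library total of 1e6, and the same per kilobase of exon length. Recomputing both left relative differences of at most 5.10e-15 and 5.22e-14, and they served only as this check. Per the submitters' processing notes, tools were STAR 2.0.4b, Subread, featureCounts 1.4.5 and Salmon for female libraries and Subread and featureCounts 1.4.5 for male ones, with GRCm38.p2. Handling of strand and of reads that map to several genes is not given in the sources used here. Identifiers were matched to symbols and gene models with GENCODE M21 on GRCm38 (40254 matched, 1134 not). No column of values without a sample was met (0).

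In R 4.3.3, genes were filtered with filterByExpr (15406 kept of 26901 with a count), scaled by TMM and fitted in edgeR 4.0.16 (robust glmQLFit, a mean for each of the 4 groups). P-values come from glmQLFTest with Benjamini-Hochberg adjustment, and 0.05 was the threshold for a call. Each standard error was derived by dividing the size of the log2 fold change by the root of its F statistic, and 95% intervals use the degrees of freedom of the fit. CPM printed is the count over library total times TMM factor. The test was tried on simulated counts with known changes. Alternatives were DESeq2 1.42.0 (genes without an adjusted p left out of its percentages), limma voom (limma 3.58.1), library totals alone, no filter, libraries left out, and the letter of the library within sex as a replicate block. Same-letter libraries of the 2 levels deviated together (r = 0.520, 0.203, 0.488, for A, B and C in females, and 0.101 for A in males), so the letters were taken to pair them. Libraries of different letters reached 0.252 in females (C with B) and 0.207 in males (C with F), so the male value of 0.101 does not stand out. Totals of 13030096 to 27011995 counts put a floor of 3 counts at 0.111 to 0.230 CPM, for counting error only, and no molecular identifiers are named in the labels, so reads can be PCR copies of 1 molecule.

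The 10 genes are always named. From each partner list up to 3 called genes per comparison were taken, or the 2 with the smallest p where none passed, and for Nefh, Prph, Spp1 and Calb2 the 3 genes with the highest correlation. Of those smallest-p genes the text gives the ones that bear on the levels. The genes and lists were chosen with earlier results of these data known.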

Additional observations from a re-analysis of the deposited data

Results flagged for a closer look

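One value stood out within its group. Prph in male L6S1, on the log2(CPM + 0.5) scale, had a gap between the lowest library (A) and the next of 0.876 of the whole range of the 4 libraries, above Dixon's 95% critical value for 4 samples. On the CPM scale the same gap was just under that critical value. Such a flag is given by chance to about 1 in 20 groups, and of the 10 genes tested in this group Prph alone was flagged.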

How the results depend on the processing

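Of 50 values of the 10 genes under 1040 alternatives, 953 kept their direction and their side of the threshold, 3 newly passed and 84 took the other sign, and none of the values that took the other sign was called. Cntnap2 in males passed with DESeq2, so that 1 of the 10 genes was called there, and leaving out 1 library gave 0 to 2 called genes. The log2 values of the other sign follow for L6S1 over L345 averaged over the sexes (averaged), in each sex, for the difference between the sexes (difference) and for males over females (sex). With DESeq2 they were Nefh 0.0011 (sex). Without TMM they were Calb1 -0.17 (males) and Nefl -0.073 (sex). With limma voom they were Calb2 0.30 (averaged), Pvalb -1.67 (females), 0.14 (sex), Calb1 -0.37 (males), Nefh 0.0030 (sex) and Nefl -0.0073 (sex). With the replicate block they were Nefm 0.083 (averaged), 0.033 (males), Prph -0.032 (averaged), Pvalb -0.29 (females), Calb1 -0.51 (males), Calb2 -1.62 (males) and Spp1 -0.44 (males), -0.82 (difference). Without D and E they were Nefh 0.059 (males), 0.053 (sex), Nefl 0.17 (males) and Calb1 -0.29 (males). Without E and F they were Nefl -0.0054 (averaged), -0.10 (sex), Calb1 -0.48 (averaged), -1.61 (males), Calb2 -0.00091 (males) and Spp1 -0.51 (difference). Without the 4 A libraries they were Pvalb 0.058 (averaged), Nefm -0.010 (females), Prph 0.12 (females), Nefh 0.071 (males), Calb1 -0.025 (males) and Nefl -0.11 (sex). With 1 library left out, values that crossed 0 ranged over Nefh -0.018 to 0.23 (averaged), -0.34 to 0.062 (males), -0.14 to 0.069 (sex), Nefm -0.23 to 0.052 (averaged), -0.25 to 0.29 (females), -0.48 to 0.038 (difference), Ina -0.088 to 0.060 (averaged), -0.025 to 0.24 (males), Calb1 -0.0040 to 0.52 (averaged), -0.67 to 0.37 (males), Calb2 -2.33 to 0.73 (averaged), -0.52 to 4.36 (males), Prph -0.20 to 0.21 (females), Pvalb -0.58 to 0.67 (females), -0.43 to 0.20 (sex), Nefl -0.17 to 0.069 (males), -0.067 to 0.051 (sex) and Spp1 -0.24 to 0.89 (difference). The causes were not tested. One group mean moved by more than its SD without TMM, Pvalb in female L345, to 1.30 CPM.

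Counts of called genes over all tested genes moved more. Averaged over the sexes the 69 calls became 187 with DESeq2, 144 without the filter, 37 without male L6S1 E and F and 28 to 129 with 1 library left out. In females the 3 calls became 56 with the replicate block, 11 with limma voom, 47 with DESeq2, 34 without the filter, 23 without D and E, 12 without E and F, 0 without the A libraries and 0 to 11 with 1 library left out. In males the 34 calls became 0 with the replicate block, 16 with limma voom, 965 with DESeq2, 264 without the filter, 19 without D and E, 9 without E and F, 103 without the A libraries and 4 to 3135 with 1 library left out. The difference between the sexes had 1 call without the filter in place of 0, and males against females had 24 with DESeq2, 19 without the filter, 7 without D and E, 5 without the A libraries and 10 to 14 with 1 library left out, in place of 12. Leaving out the A libraries was chosen after the data were seen.

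With 3 or 4 pools a group and 1 to 54 counts of Calb2 per group, changes in Calb2 and Pvalb were not detectable at this depth unless large.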
